A study of Mus musculus with 24 samples.

Results

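Neuropeptides are short signalling peptides that neurons cut from larger precursor proteins, store in dense-core vesicles and release during sustained firing, after which they act on G protein-coupled receptors. In cerebral cortex most precursors are made by particular classes of interneuron or projection neuron, and several of them are textbook targets of transcription factors driven by neuronal activity, such as CREB and AP-1. The 9 precursor genes described here are Adcyap1 (the peptide PACAP), the opioid precursors Penk and Pdyn, the tachykinin precursors Tac1 and Tac2, Crh (corticotropin-releasing hormone), Nts (neurotensin), Cartpt (the CART peptides) and Cort (cortistatin). They were taken by name from the deposited counts of 55417 genes, and all 9 were among the 16767 genes that passed the filter on low counts.

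The RNA came from subdissected entorhinal cortex of mice aged 2 to 4 months that carried both Nop-tTA Line S and TRE-GlyCl-YFP Line 9531 (genotype tg/tg). In this cross the transactivator tTA, under the Nop (neuropsin) promoter known for its activity in superficial entorhinal neurons, switches on GlyCl, a chloride channel that silences the neurons carrying it when it is activated. The series asks about survival of adult entorhinal neurons in relation to their activity. The 24 libraries were 6 from vehicle mice (4 females, 2 males) and 6 each from mice 1, 2 and 3 days after channel activation (3 females and 3 males a day). Vehicle mice carried both transgenes too, so no group lacks the channel. In bulk tissue, fewer cells of a type and less RNA per cell cannot be told apart. Library names carry an animal number, yet no label states that the mice were all different, so p-values may measure only the spread between libraries.

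Library totals ran from 16.6 to 23.7 M reads. The transgene marker EYFP was present in every library. Its CPM (counts per M reads of the library total) ran from 93.7 to 137 in vehicle and 76.3 to 134 on day 1. On day 2 it ran from 81.8 to 115 CPM, and on day 3 from 50.4 to 77.4 CPM, below every vehicle library. How this bears on the precursor values was not tested. The 6 markers of superficial entorhinal neurons were all detected, with summed levels of 615 to 738 CPM over the libraries. Ttr, which choroid plexus makes in large amounts, reached at least 562 CPM in 8 libraries (1 of vehicle, and 2, 2 and 3 on days 1, 2 and 3) and at most 25.9 CPM in the other 16. Markers of striatal neurons, cells known for high Penk and Tac1, were also detected in every library, with sums of 170.2 to 329.6 CPM over 7 genes.

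Promoters of 7 of the 9 genes are in the RefSeq table of mouse promoters (build GRCm38.p6), some with more than 1 start site, giving 9 windows. Penk and Crh are not in it. The 250 bases before each start were searched on both strands for letters bound by activity-driven factors: the full cyclic AMP response element TGACGTCA, its short core TGACG, the related element TGCGTCA (which contains the short core in reverse), the AP-1 site TGACTCA (read TGAGTCA on the other strand) and the EGR site GCGTGGGCG. The upstream window of the 2 for Adcyap1 and the window of Cort are shown, as these genes had the smallest day 1 p-values. The 30-base windows of Cartpt, Tac1 and Nts show the longer matches. Capitals mark the motif letters and each sequence runs 5′ to 3′ on the gene's strand.
Adcyap1, chr17:93198767-93199016, plus strand: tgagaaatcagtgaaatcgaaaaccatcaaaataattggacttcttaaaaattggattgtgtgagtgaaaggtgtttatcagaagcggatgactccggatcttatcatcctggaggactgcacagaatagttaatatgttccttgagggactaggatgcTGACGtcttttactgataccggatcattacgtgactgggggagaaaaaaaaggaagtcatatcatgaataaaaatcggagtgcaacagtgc
Cort, chr4:149126764-149127013, minus strand: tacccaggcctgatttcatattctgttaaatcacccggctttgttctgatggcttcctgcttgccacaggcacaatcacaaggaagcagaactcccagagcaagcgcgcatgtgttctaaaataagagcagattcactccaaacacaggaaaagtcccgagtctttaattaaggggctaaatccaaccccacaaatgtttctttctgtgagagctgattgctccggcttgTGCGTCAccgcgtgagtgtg
Cartpt, chr13:99900777-99900806, minus strand: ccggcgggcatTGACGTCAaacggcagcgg
Tac1, chr6:7554851-7554880, plus strand: ttccctaaaatTGCGTCAtttcgaacacaa
Nts, chr10:102490607-102490636, minus strand: aactctttctgTGAGTCAgaaatcctgagc

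The short core was found in 6 of the 9 windows, from 5 genes (Adcyap1, Cartpt, Cort, Nts and Tac1), while 17.8% of all 32851 windows held it. The 2 windows of Adcyap1 overlap and their match is a single genomic site, so the 6 windows stand for 5 separate promoter regions. The full element occurred in Cartpt alone, 112 to 105 bases before the start, and in 1.55% of all windows. TGCGTCA occurred in Cort (20 to 14 bases before the start) and Tac1 (199 to 193 bases before it), and in 1.75% of all windows. The AP-1 letters occurred in Nts, 207 to 201 bases before the start, and in 4.46% of all windows. The EGR letters were in 0 of the 9 windows and in 0.536% of all. These matches are descriptions of the letters in these windows and do not show that a factor binds there.

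Levels between genes were compared per kilobase of annotated exon. In vehicle tissue Penk had the highest level, 33.8 ± 5.26 CPM per kb (SD, n = 6), and its lowest vehicle library (27.2 CPM per kb) stood above the highest of any other member (10.4 CPM per kb, Cort). Cort (8.97 CPM per kb), Pdyn (8.03) and Tac2 (7.03) followed, and their vehicle libraries overlapped. Cartpt (4.60 CPM per kb), Tac1 (4.57), Crh (4.49), Adcyap1 (3.82) and Nts (3.51) formed the lower end and overlapped in the same way. The order below Penk depends on the transcript assumed: with the longest coding transcript as the length, Tac1 came to 12.6 CPM per kb and stood next to Penk. In all of what follows, values are levels in CPM or differences in log2, compared within a gene.

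None of the 9 precursor genes passed the test on any day. At an adjusted p under 0.05 (edgeR quasi-likelihood test over all genes), 0 of 9 were called 1 day after activation, when 0.0656% of all genes were called, 0 of 9 after 2 days, also with 0.0656% of all genes called, and 0 of 9 after 3 days, with 0.614% of all genes called. DESeq2 and limma voom also called 0 of the 9 on each day and between days. At an unadjusted p under 0.05 there were 2 members on day 1 (Adcyap1 and Cort), 1 on day 2 (Adcyap1) and 0 on day 3, while 7.25%, 5.201% and 5.64% of all genes met that threshold on days 1, 2 and 3. The 3 days tested jointly called 0 members and 0.644% of all genes, with 1 member (Adcyap1) at an unadjusted p under 0.05. The median log2 fold change of the 9 was 0.07, 0.01 and -0.06 on days 1, 2 and 3, and that of all genes was 0.00 on each day.

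**Figure D1:**
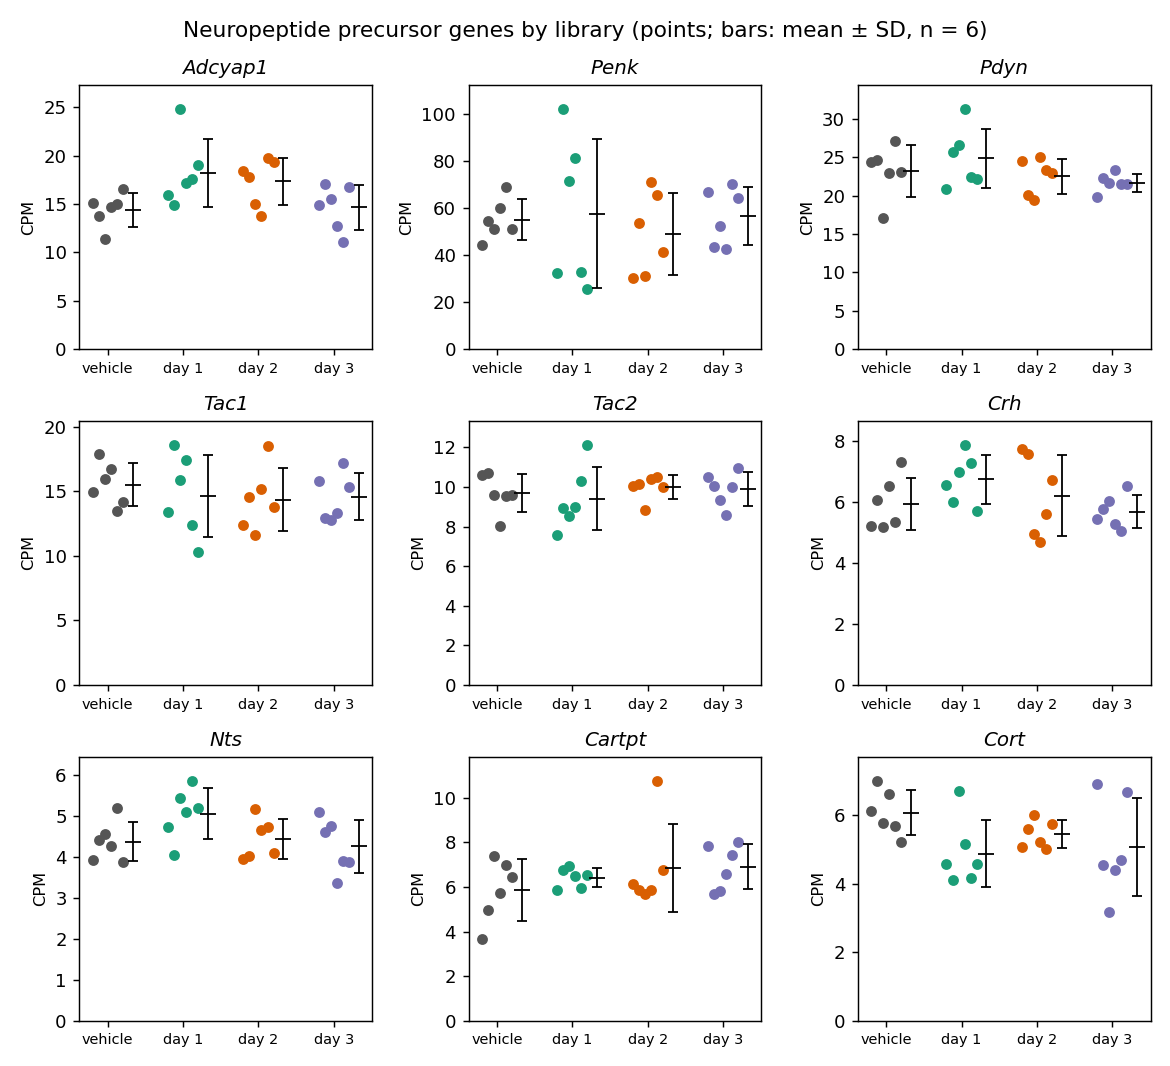
Level of each precursor gene in CPM (vertical axes, from 0) in the 24 libraries, by group; points are libraries in replicate order and bars give the mean and SD of 6 libraries. The groups overlapped for all 9 genes, and Penk on day 1 ran from 25.6 to 102 CPM.

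The comparisons between days gave the same count. From day 1 to day 2, 0 of 9 members were called by edgeR (0.0119% of all genes) and 0 had an unadjusted p under 0.05 (4.25% of all genes). From day 2 to day 3, 0 of 9 were called (0.131% of all genes) and 1, Adcyap1, had an unadjusted p under 0.05 (4.94% of all genes). From day 1 to day 3, 0 of 9 were called (0.65% of all genes) and 3 had an unadjusted p under 0.05, as did 8.39% of all genes. These were Adcyap1 (log2 difference -0.31 ± 0.11 SE, edgeR adjusted p = 0.324), Pdyn (-0.19 ± 0.09, adjusted p = 0.557) and Nts (-0.25 ± 0.12, adjusted p = 0.566), each lower on day 3 than on day 1. In no comparison did the libraries of both groups separate without overlap for any member, which 0.632%, 0.298% and 0.74% of all genes did for days 1, 2 and 3 against vehicle, and 0.155%, 0.328% and 0.829% did from day 1 to 2, day 2 to 3 and day 1 to 3.

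The intervals here are those of the main edgeR fit of all 24 libraries and depend on its SE. In the fit without the Ttr-rich libraries, Penk and Adcyap1 reached past 1.5-fold on day 1 (values below). On day 3 the 95% interval of each of the 9 genes lay within a 1.5-fold change of vehicle in both directions. On day 1 this held for 8 of 9, with Cort reaching past it, and on day 2 for 8 of 9, with Penk reaching past it. The standard errors ran from 0.09 (Pdyn) to 0.25 (Penk) on day 1.

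**Figure D2:**
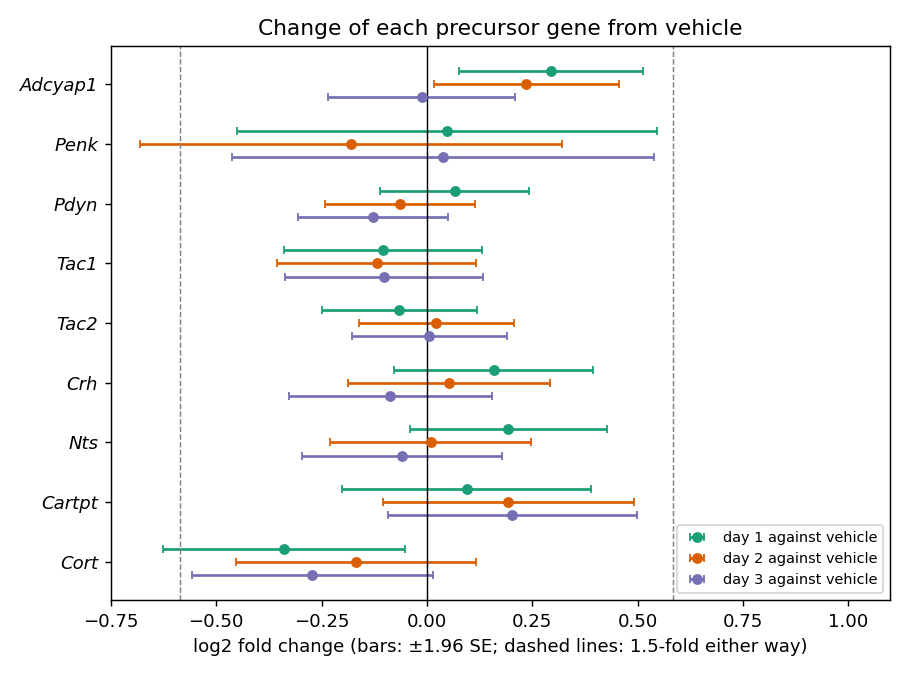
Log2 fold change of each precursor gene from vehicle on days 1, 2 and 3 (horizontal axis; points are edgeR estimates and bars 95% intervals). The largest estimates are those of Cort on day 1 (-0.34) and Adcyap1 on day 1 (0.29), and Penk has the widest bars.

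Adcyap1 encodes PACAP, a peptide of the VIP and secretin family that cortical excitatory neurons make. Its vehicle libraries ran from 11.4 to 16.6 CPM with a median of 14.8. The day 1 libraries ran from 14.9 to 24.8 CPM (median 17.4), the day 2 libraries from 13.8 to 19.8 CPM (median 18.1) and the day 3 libraries from 11.1 to 17.03 CPM (median 15.2). Thus 4 of 6 libraries on day 1 and 4 of 6 on day 2 stood above the highest vehicle library, while day 3 covered the vehicle range. The mean was 14.4 ± 1.75 CPM in vehicle, 18.2 ± 3.52 on day 1, 17.3 ± 2.43 on day 2 and 14.7 ± 2.33 on day 3 (SD, n = 6). The log2 fold change was 0.29 ± 0.11 on day 1 (SE; edgeR adjusted p = 0.484), 0.24 ± 0.11 on day 2 (adjusted p = 0.950) and -0.01 ± 0.11 on day 3 (adjusted p = 0.999). Adcyap1 had the smallest joint p of the 9 members (0.0161 in edgeR, adjusted p = 0.470). Day 1 library 3, at 24.8 CPM, was the highest of all 24, and the day 1 log2 fold change was 0.21 ± 0.11 without it. Leaving out the 8 Ttr-rich libraries gave 0.40 ± 0.12 on day 1 (edgeR adjusted p = 0.235).

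Receptors for PACAP were measured in the same libraries. Adcyap1r1, the PACAP-selective receptor, averaged 236 ± 12.8 CPM in vehicle, and its log2 fold change was 0.04 ± 0.05, -0.04 ± 0.05 and -0.04 ± 0.05 on days 1, 2 and 3. Vipr1 and Vipr2, which bind PACAP and VIP, were at -0.10 ± 0.07 and -0.12 ± 0.22 on day 1. None of the 3 passed the test on any day.

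Penk, the precursor of Met- and Leu-enkephalin, was the member with the widest spread. The vehicle libraries ran from 44.4 to 69.2 CPM with a median of 53.1. On day 1, libraries 2, 4 and 3 stood at 102, 81.4 and 71.7 CPM, all above the highest vehicle library, and libraries 5, 1 and 6 at 32.9, 32.2 and 25.6 CPM, all below the lowest. Day 1 therefore spanned a 3.99-fold range while its mean, 57.7 ± 31.7 CPM, stood close to the vehicle mean of 55.2 ± 8.60. Day 2 ran from 30.2 to 71.0 CPM (mean 48.9 ± 17.4) and day 3 from 42.5 to 70.4 CPM (mean 56.7 ± 12.3). The log2 fold change was 0.05 ± 0.25, -0.18 ± 0.26 and 0.04 ± 0.26 on days 1, 2 and 3 (SE; edgeR adjusted p from 0.988 to 0.999). Each library held at least 549 Penk reads. After fitting group and sex, the SD of Penk between libraries was 0.54 in log2, larger than that of 99.9% of the 2401 genes of similar level, whose median was 0.09. Exons of Penk overlap a noncoding gene on the opposite strand, A830012C17Rik, over 233 bases in the GENCODE annotation; whether the counts used strand is not given in the sources used here, so reads there cannot be told apart.

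On day 1 the libraries with high Penk also held the most RNA of striatal marker genes. The 7 markers (Drd1, Drd2, Adora2a, Ppp1r1b, Rgs9, Pde10a, Gpr6) summed to 329.6, 282 and 245 CPM in day 1 libraries 2, 4 and 3, and to 189.5, 186 and 170.2 CPM in libraries 5, 1 and 6. All 7 were detected in each group, with summed ranges of 199.9 to 243 CPM in vehicle, 174 to 261 CPM on day 2 and 196 to 252 CPM on day 3, and edgeR, DESeq2 and voom called 0 of the 7 on each day, with 0 at an unadjusted p under 0.05 in edgeR. Several of these genes are also made by cortical neurons. Ttr did not separate the day 1 libraries in the same way: it was at 891 and 983 CPM in libraries 2 and 4 but at 13.97 CPM in library 3. The residual level of Penk, after group and sex were fitted, followed the mean of these markers with Pearson's r of 0.939 and Spearman's rho of 0.936 over 24 libraries. The permutation p was 1e-05, the smallest that 100000 permutations can give, and 0.00045 for r after adjustment over 90 pairs of a member and a marker list. The members and lists were chosen with earlier results of these data known. Neither this p nor those of the pairs below cover that choice. Without the 2 libraries farthest from the median r was 0.918, without the 8 Ttr-rich libraries 0.881, and with the leading digits of the animal number as a factor 0.911.

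**Figure D3:**
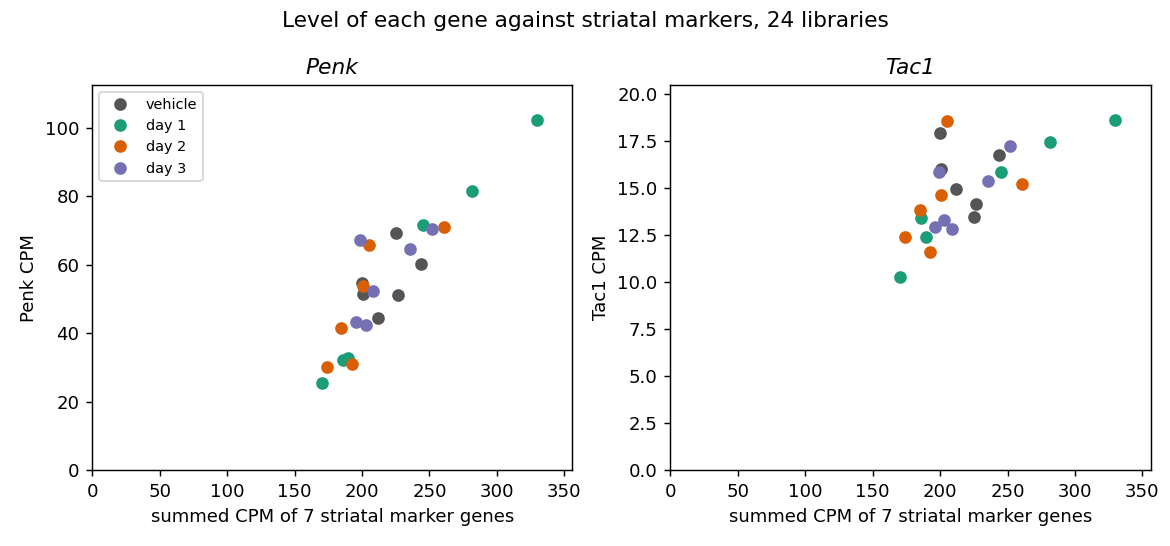
Penk (left) and Tac1 (right) in CPM against the summed CPM of the 7 striatal marker genes (axes from 0); each point is 1 of the 24 libraries, coloured by group. The 3 day 1 libraries with the most Penk (71.7 to 102 CPM) have marker sums of 245 to 329.6 CPM.

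By the same residual measure over 13358 genes, the genes most like Penk were Adora2a (r = 0.94), an adenosine receptor, and Ppp1r1b (r = 0.90), which encodes DARPP-32; Drd2, the dopamine D2 receptor, followed with r = 0.88. All 3 are on the striatal list, and Adora2a and Drd2 are textbook markers of the striatal neurons that make enkephalin. Within that list, Penk had its lowest r with Pde10a (0.446) and Gpr6 (0.479). In single libraries Adora2a stood at 25.7 CPM in day 1 library 2 and at 1.81 CPM in day 1 library 6, the libraries with the most and the least Penk of the whole set. With the striatal marker sum as a covariate, an analysis added after the data were seen, the SE of Penk on day 1 was 0.13 and the log2 fold change -0.24 (edgeR adjusted p = 0.650). The same analysis gave 0.00 ± 0.13 on day 2 and 0.07 ± 0.12 on day 3. Without the Ttr-rich libraries the day 1 value was -0.41 ± 0.24, and it was -0.28 ± 0.20 with the animal number as a factor. The sign of Penk on day 1 thus depended on the setting, and the call did not. The part that RNA from striatal-type neurons has in these values was not tested.

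Pdyn encodes the dynorphins, opioid peptides that act on the kappa receptor, and in the temporal lobe is abundant in dentate granule cells. Vehicle libraries ran from 17.03 to 27.1 CPM (median 23.7), day 1 from 20.9 to 31.3 CPM (median 24.1), day 2 from 19.4 to 24.98 CPM (median 23.1) and day 3 from 19.8 to 23.3 CPM (median 21.5). Only day 1 library 4 left the vehicle range. In log2, the fold change was 0.07 ± 0.09, -0.06 ± 0.09 and -0.13 ± 0.09 on days 1, 2 and 3. The genes most like Pdyn over libraries were Cdh24 (r = 0.82) and Robo3 (r = 0.81). Here and for each other member, such genes have the highest r of 13358. How high the top r of so many unrelated genes would stand was not tested. Of the opioid receptor genes, Oprd1 (delta), Oprm1 (mu) and Oprk1 (kappa) were at -0.03 ± 0.09, 0.01 ± 0.17 and 0.23 ± 0.17 on day 1, and Oprl1, the nociceptin receptor, at 0.06 ± 0.05. None of the 4 passed the test on any day.

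Tac1, the precursor of substance P and neurokinin A, ran from 13.4 to 17.9 CPM in vehicle (median 15.5), 10.3 to 18.6 CPM on day 1 (median 14.6), 11.6 to 18.5 CPM on day 2 (median 14.2) and 12.8 to 17.2 CPM on day 3 (median 14.3). Its log2 fold change was -0.10 ± 0.12, -0.12 ± 0.12 and -0.10 ± 0.12. Tac1 varied with Penk between libraries (r = 0.839, rho = 0.800, permutation p = 1e-05, the smallest possible, adjusted p = 0.00036 over 36 pairs of members), the only pair of the 36 to pass. The r was 0.767 without the 2 farthest libraries, 0.904 without the Ttr-rich libraries and 0.802 with the animal number as a factor. Tac1 also followed the striatal markers (r = 0.781, rho = 0.737, permutation p = 1e-05 for r, adjusted p = 0.00045), with r = 0.750 without the 2 farthest libraries and 0.771 without the Ttr-rich libraries, and its 2 most similar genes were Penk (r = 0.84) and Adora2a (r = 0.84). Within the striatal list, Tac1 had its lowest r with Pde10a (0.366) and Gpr6 (0.283). Penk, Tac1 and the markers come from the same libraries and share their dissection and scaling.

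Tac2, the precursor of neurokinin B, had the smallest biological coefficient of variation of the 9, 9.42%. Its libraries ran from 8.03 to 10.7 CPM in vehicle, 7.59 to 12.1 CPM on day 1, 8.83 to 10.5 CPM on day 2 and 8.59 to 10.95 CPM on day 3. Log2 fold changes were -0.07 ± 0.09, 0.02 ± 0.09 and 0.01 ± 0.09. Its closest genes were Rps28 (r = 0.76) and Olfm1 (r = 0.75). The tachykinin receptor genes Tacr1, Tacr2 and Tacr3 were at 0.19 ± 0.20, -0.11 ± 0.28 and 0.27 ± 0.17 on day 1 and did not pass the test on any day.

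Crh encodes a stress peptide that a set of cortical interneurons also makes. It ran from 5.19 to 7.30 CPM in vehicle, 5.70 to 7.86 CPM on day 1, 4.67 to 7.71 CPM on day 2 and 5.03 to 6.52 CPM on day 3, so that the groups shared most of their range. Log2 fold changes from vehicle were 0.16 ± 0.12, 0.05 ± 0.12 and -0.09 ± 0.12. The receptor genes Crhr1 and Crhr2 were at -0.15 ± 0.08 and 0.18 ± 0.17 on day 1, and neither passed the test on any day. Genes closest to Crh over libraries were Iah1 (r = 0.76) and Cisd2 (r = 0.72).

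Nts, the neurotensin precursor, was the lowest member per kilobase, at 3.88 to 5.21 CPM in vehicle, 4.06 to 5.87 CPM on day 1, 3.96 to 5.17 CPM on day 2 and 3.36 to 5.09 CPM on day 3. Its log2 fold change was 0.19 ± 0.12, 0.01 ± 0.12 and -0.06 ± 0.12. Ntsr1, a neurotensin receptor that marks deep-layer cortical neurons, was at 0.19 ± 0.08 on day 1 (edgeR adjusted p = 0.615), and Ntsr2, found mainly in astrocytes, at 0.02 ± 0.05. The closest genes were Mob4 (r = 0.72) and Hacd3 (r = 0.70).

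Cartpt, the precursor of the CART peptides, ran from 3.66 to 7.39 CPM in vehicle, 5.87 to 6.93 CPM on day 1, 5.67 to 10.8 CPM on day 2 and 5.69 to 7.999 CPM on day 3. Its log2 fold change was 0.09 ± 0.15, 0.19 ± 0.15 and 0.20 ± 0.15, with adjusted p from 0.950 to 0.999 (edgeR). The lowest vehicle library, library 1 at 3.66 CPM, stood below all libraries of the other groups. Its closest genes were Mrap2 (r = 0.74) and Ybx2 (r = 0.74).

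Cort encodes cortistatin, a relative of somatostatin made by cortical interneurons that binds the somatostatin receptors. Vehicle libraries ran from 5.23 to 7.01 CPM (median 5.94) and day 1 libraries from 4.11 to 6.71 CPM (median 4.57). On day 1, 5 of 6 libraries stood below the lowest vehicle library, and library 3, at 6.71 CPM, stood among the vehicle values. Day 2 ran from 5.01 to 6.001 CPM (median 5.41) and day 3 from 3.19 to 6.91 CPM (median 4.62). The mean was 6.07 ± 0.657 CPM in vehicle, 4.88 ± 0.969 on day 1, 5.44 ± 0.406 on day 2 and 5.07 ± 1.44 on day 3 (SD, n = 6). The log2 fold change was -0.34 ± 0.15 on day 1 (SE; edgeR adjusted p = 0.589), -0.17 ± 0.15 on day 2 (adjusted p = 0.990) and -0.27 ± 0.15 on day 3 (adjusted p = 0.959). Without day 1 library 3 the day 1 value was -0.44 ± 0.14 (edgeR adjusted p = 0.414). The closest genes were Arhgdia (r = 0.77) and Pcbp1 (r = 0.74).

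The sexes were compared through a group by sex term, which called 0 of 9 members and 0% of all genes in edgeR, with 0 members and 585 genes at an unadjusted p under 0.05. Cort on day 1 was at -0.56 ± 0.16 among females and -0.08 ± 0.24 among males in separate fits, and its interaction p was 0.327 (edgeR, adjusted p = 1.00). Female day 1 libraries held 4.11 to 4.57 CPM of Cort against 5.67 to 7.01 CPM in the 4 female vehicle libraries. Male day 1 libraries held 4.57 to 6.71 CPM against 5.23 to 6.13 CPM in the 2 male vehicle libraries.

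Variation between libraries was mostly not shared among the precursors. Of 36 pairs of members, 22 had r above 0, and after Penk and Tac1 the next was Adcyap1 with Crh (r = 0.507, rho = 0.495, permutation p = 0.0112 for r, adjusted p = 0.202). Of the 90 pairs of a member and a list of cell markers, 7 passed an adjusted permutation p of 0.05 by Pearson's r and 5 by both measures. Besides the 2 striatal pairs, these were Tac1 with markers of glutamatergic neurons (r = -0.690, rho = -0.683, adjusted p = 0.0054), Pdyn with oligodendrocyte markers (r = 0.682, rho = 0.637, adjusted p = 0.0072) and Tac2 with red blood cell transcripts (r = 0.580, rho = 0.590, adjusted p = 0.0409). Without the 2 farthest libraries these stood at -0.648, 0.484 and 0.523. Cort with microglia markers (r = 0.614, rho = 0.535) and Cartpt with markers of glutamatergic neurons (r = -0.582, rho = -0.389) passed by Pearson's r alone, and the latter stood at -0.29 without its 2 farthest libraries.

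**Figure D4:**
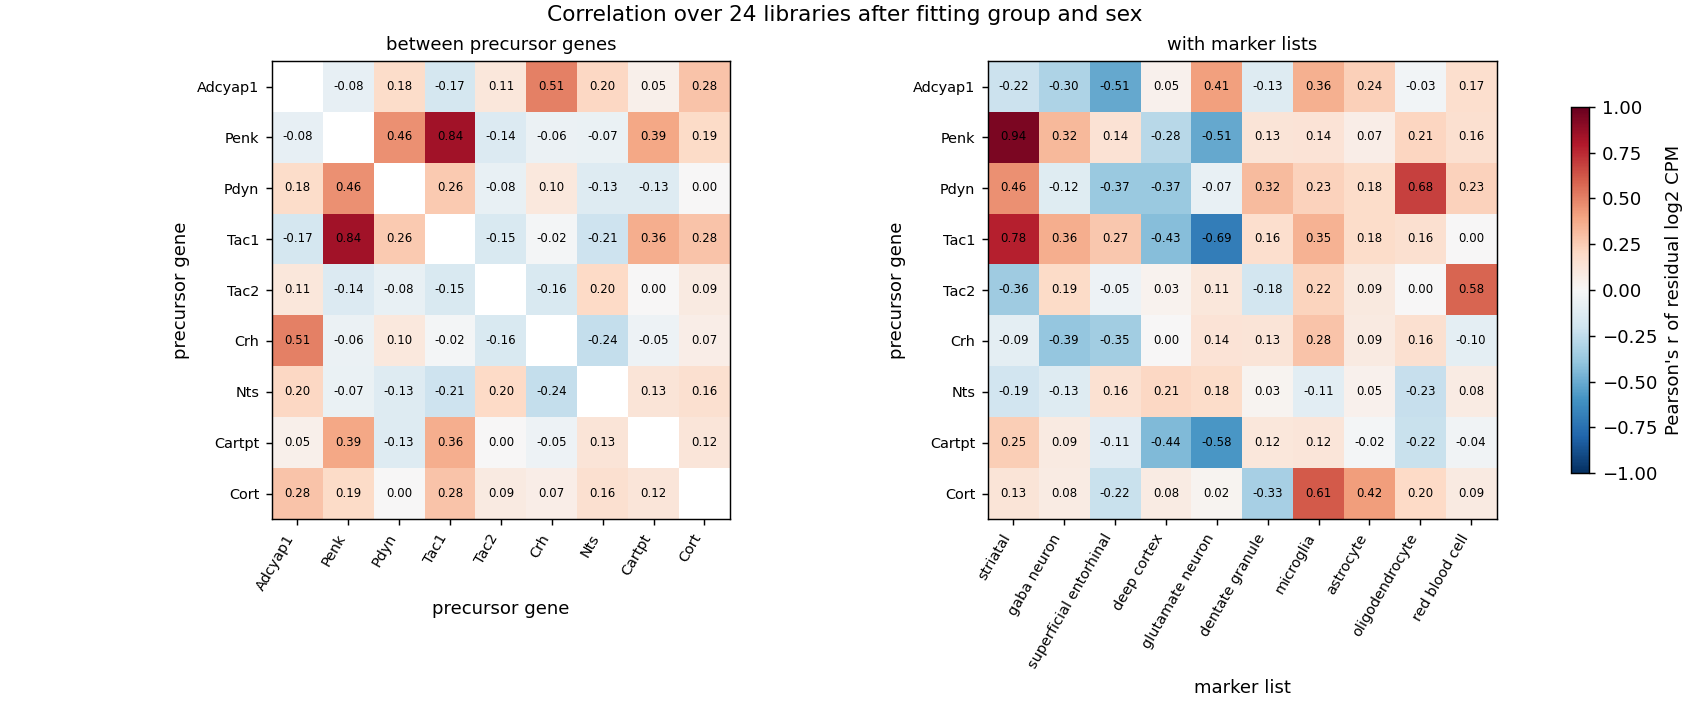
Pearson's r over 24 libraries of residual log2 CPM, after group and sex were fitted, between the 9 precursor genes (left) and between each gene and the mean of each marker list (right); colour runs from -1 (blue) to 1 (red). Penk with Tac1 and Penk with striatal markers are the strongest entries of their panels.

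Of 42 other precursor genes in the counts, 20 passed the filter on low counts, and edgeR called 0 of the 20 on each day, with 4, 2 and 1 at an unadjusted p under 0.05 on days 1, 2 and 3 (7.25%, 5.201% and 5.64% of all genes). Of the 4 on day 1, 3 were lower than vehicle (Sst, Grp and Apln) and 1 was higher: Nppc, the precursor of C-type natriuretic peptide, named here after its value was seen, at 0.29 ± 0.13 (edgeR adjusted p = 0.630). DESeq2 and voom also called 0 on each day. Sst, the somatostatin precursor and the close relative of Cort, averaged 259 ± 14.5 CPM in vehicle and 233 ± 17.5, 231 ± 16.7 and 238 ± 20.2 CPM on days 1, 2 and 3. Its log2 fold change was -0.15 ± 0.05, -0.16 ± 0.05 and -0.12 ± 0.05 (edgeR adjusted p = 0.390, 0.723 and 0.736). Grp, the gastrin-releasing peptide precursor, was at -0.28 ± 0.10 on day 1 (edgeR adjusted p = 0.425) and at 0.01 ± 0.10 on day 3. Apln, the apelin precursor, was at -0.22 ± 0.08 on day 1 (edgeR adjusted p = 0.408).

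At an unadjusted p under 0.05 in edgeR there were 2, 1 and 0 of 21 receptor genes for these peptides (7.25%, 5.201% and 5.64% of all genes). Among the 21, edgeR and voom called 0 on each day and DESeq2 called 1 on day 1. Sstr2, a receptor for somatostatin and cortistatin, was that gene, at 27.4 ± 2.20 CPM in vehicle and 23.4 ± 1.49 CPM on day 1, a log2 fold change of -0.25 ± 0.06 (edgeR adjusted p = 0.149). DESeq2 put the same difference at an adjusted p of 0.0469 and voom at 0.143. The vehicle libraries ran from 25.2 to 31.0 CPM and the day 1 libraries from 21.6 to 25.4 CPM, so the groups met at their edges. Day 2 was at -0.15 ± 0.06 and day 3 at -0.02 ± 0.06. Sstr1, Sstr3 and Sstr4 were at 0.14 ± 0.08, -0.08 ± 0.06 and 0.03 ± 0.09 on day 1.

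Of 16 genes for cutting, modifying or binding peptides, 1 was called against vehicle, on days 2 and 3 (0.0656% and 0.614% of all genes). Ecel1, a membrane peptidase of the endothelin-converting enzyme family known for its induction in injured neurons, rose on days 2 and 3. Its libraries ran from 8.43 to 17.6 CPM in vehicle, 12.5 to 20.7 CPM on day 1, 16.7 to 38.4 CPM on day 2 and 22.2 to 30.7 CPM on day 3, and day 3 did not overlap vehicle. The log2 fold change was 0.28 ± 0.17 on day 1 (edgeR adjusted p = 0.781), 0.88 ± 0.17 on day 2 (adjusted p = 0.0247) and 1.04 ± 0.17 on day 3 (adjusted p = 0.000462). The day 3 call stood in 38 of 38 alternative settings and the day 2 call in 29 of 38. On day 2 the edgeR adjusted p was 0.0835, 0.0725 and 0.137 without vehicle libraries 1, 5 and 6 and 0.128 without day 2 library 2, and it was 0.0718 in voom. Pcsk1, the convertase that makes the first cuts in many precursors, was at -0.23 ± 0.09, -0.05 ± 0.09 and -0.24 ± 0.09 (edgeR adjusted p = 0.452, 0.991 and 0.511). Mme (neprilysin, which degrades enkephalins and other peptides) was at -0.26 ± 0.09 on day 3 and Ece1 at -0.17 ± 0.05 on day 2, neither called.

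Of 14 genes of the dense-core vesicle, edgeR, DESeq2 and voom called 0 on each day. At an unadjusted p under 0.05 in edgeR there were 2, 0 and 1 (7.25%, 5.201% and 5.64% of all genes). Vgf, a granin-like precursor that responds to activity, averaged 409 ± 24.6 CPM in vehicle and 363 ± 26.2 CPM on day 1 (log2 fold change -0.19 ± 0.06, edgeR adjusted p = 0.383), and was at -0.01 ± 0.06 on day 2. Chgb and Scg2, which help to form the vesicle core, were at -0.03 ± 0.04 and 0.03 ± 0.05 on day 1 and at -0.11 ± 0.04 (edgeR adjusted p = 0.539) and -0.09 ± 0.05 on day 3.

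Transcription factors driven by or acting in activity-dependent expression were read in the same libraries. Of 19 such genes tested, edgeR called 1 on day 1 and 0 on days 2 and 3 (0.0656%, 0.0656% and 0.614% of all genes). The unadjusted p was under 0.05 for 9, 4 and 0 of them (7.25%, 5.201% and 5.64% of all genes). The 9 on day 1 were 8 lower and 1 higher than vehicle. Egr3 fell on day 1 from 231 to 141 CPM, with day 1 libraries from 117 to 175 CPM and vehicle libraries from 188 to 304 CPM, a log2 fold change of -0.74 ± 0.12 (edgeR adjusted p = 0.00602), and the groups did not overlap. Among males alone the value was -0.76 ± 0.19 and was not called (edgeR adjusted p = 0.924). Fosl2 and Nr4a3 were at -0.51 ± 0.14 and -0.59 ± 0.16 on day 1 (edgeR adjusted p = 0.202 and 0.213). The median over the 19 genes on day 1 was -0.18, against 0.07 for the 9 precursors. Among 8 tested genes of the neuronal injury response, Ecel1 and Atf3 were called on days 2 and 3 (0.0656% and 0.614% of all genes). Ecel1 is on both lists and is the same call as among the peptide-cutting genes above. Atf3 was low, at 0.508 ± 0.217 CPM in vehicle, 1.36 ± 0.353 on day 2 and 1.498 ± 0.319 on day 3. Its day 2 call (log2 fold change 1.41 ± 0.29, edgeR adjusted p = 0.0499) stood in 11 of 38 alternative settings and its day 3 call (1.53 ± 0.28, adjusted p = 0.00265) in 35 of 38. The day 2 call was kept in 5 of the 24 fits that left out 1 library and the day 3 call in all 24. Without the Ttr-rich libraries the day 3 value of Atf3 was 1.56 ± 0.36 (edgeR adjusted p = 0.0913).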

How the data were processed

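The authors deposited raw read counts per gene for 24 libraries of bulk entorhinal cortex. Per the submitters' processing notes, fastp 0.23.1, STAR 2.7.9a, DESeq2 1.32.0 and build mm39 were used; for their settings, the counting program and strand, nothing is given in the sources used here. Counts were tested with edgeR 4.0.16 in R 4.3.3 (quasi-likelihood test, TMM factors, filterByExpr with minimum count 10, group and sex as terms, Benjamini-Hochberg adjustment over 16767 genes, calls at 0.05). CPM is counts over the library total. Alternatives were DESeq2 1.42.0, limma 3.58.1 voom, other factors and filters, covariates and leaving out libraries. Correlations used residual log2 CPM (prior count 2) and 100000 permutations. Exon lengths came from GENCODE M21. The test was checked on simulated counts that gave all genes the same spread. That spread was smaller than the coefficient of variation fitted for each of the 9 members (9.42% to 30.0%). No 2 libraries of a group agreed within sampling noise. The members and gene lists were chosen with earlier results of these data known. Named genes are all 9 members, called genes of each peptide list, their receptors and up to 3 genes per list by joint p. The 2 genes most like each member are also named, except for Adcyap1. The time at which vehicle tissue was taken is not given in the labels. 1 marker gene of the striatal list is not reported here, and the sums over that list leave it out.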

Additional observations from a re-analysis of the deposited data

Results flagged for a closer look

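In 36 groups of 6 libraries (9 genes, 4 groups), 2 held a library far from the others by Dixon's test, which chance gives in about 1 in 20 groups. Tac2 stood at 8.83 CPM in day 2 library 3, with the next library at 9.97 CPM. Cartpt stood at 10.8 CPM in day 2 library 5, with the next at 6.77 CPM.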

How the results depend on the processing

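The 9 precursor genes gave 0 calls against vehicle on each day under all 38 alternative settings, 24 of which left out 1 library. With no filter on low counts (36066 genes tested), edgeR called 1 member from day 1 to day 2 (Penk, adjusted p = 0.0225). It called 1 from day 2 to day 3 (Penk, 0.0415) and 1 from day 1 to day 3 (Adcyap1, 0.0184). The joint test called 2 (Adcyap1 and Penk) and the interaction with sex 1 (Penk, 1.51e-07). In the same order, that fit called 58, 79, 295, 433 and 175 of all genes, against 2, 22, 109, 108 and 0 in the report. The SE of Penk from day 1 to day 2 was then 0.05 in place of 0.25, and the cause was not tested. Of 54 member values (9 genes, 6 comparisons), 28 changed sign in some setting and 3 were called in any. Counts over all genes ran from 0 to 159 (11 in the report), 0 to 86 (11) and 12 to 217 (103) on days 1, 2 and 3 against vehicle, with the highest counts from the fit without a filter. The labels give the groups no shared replicate numbers; the leading digits of the animal number, which several groups share and whose meaning no label gives, were fitted as a factor and also gave 0 members called in each comparison. Depth was lowest for Cort, Cartpt and Nts, at 53, 67 and 69 reads in their lowest libraries.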
